A study of Mus musculus with 12 samples.

Results

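The genes described here encode the proteins of the mitochondrial ribosome, taken as every row of the count table whose symbol is Mrpl or Mrps followed by a number, with 5 symbols that end in -ps (pseudogene names) left out. They numbered 77 of the 46095 symbols in the table, and all 77 were among the 17530 genes with enough counts to be tested. By the subunit each protein is known to occupy, 50 belonged to the large subunit, 26 to the small subunit, and Mrps36 to neither, since its product is a part of the 2-oxoglutarate dehydrogenase complex. The 50 include Mrps18a and Mrps30, which carry small-subunit names. RNA sequencing was done on renal cortex of C57BL/6 mice aged 12 weeks in 3 groups of 4 libraries: normal controls (NC), animals with diabetic nephropathy (DN), and animals with the same disease that also received sodium butyrate, the salt of a short-chain fatty acid (DN+NaB). The labels give no genotype, no way by which diabetes was induced, and no dose, route or duration of butyrate. They do not tie libraries to animals either, so each p-value reflects only how far these libraries spread, which may be technical.

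The mitochondrial ribosome translates the few messenger RNAs of the mitochondrial genome, all of which encode subunits of the respiratory chain and ATP synthase. Its ribosomal RNAs are made inside the organelle, but its proteins are encoded in the nucleus, made in the cytosol and imported. Some of these proteins have counterparts in bacterial ribosomes and others exist only in mitochondria, and the cells of the kidney tubule, which drive salt and solute transport, are rich in mitochondria.

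Total counts ran from 58394975 to 70674015 per library, and the 77 members held 129271 to 196970 of them, or 0.221% to 0.285%. The extraction protocol names a brain region whereas the tissue label names renal cortex; the kidney markers Lrp2, Slc34a1 and Umod had at least 547305, 343251 and 165229 counts in every library, while the neuronal markers Snap25 and Neurod6 had 0 in all 12 and Slc17a7 at most 2. Of the 8 brain markers, 2 were at 0 throughout, and nearly all counts of the list were from the myelin gene Mbp (942 to 1501). Their summed CPM (counts per library scaled to a common size) lay between 16.9 and 22.3 in NC, between 17.6 and 24.6 in DN, and between 16.3 and 23.2 in DN+NaB. The share of counts from the 13 protein genes of the mitochondrial genome differed widely between libraries: 0.494% in NC replicate 1 and 0.944% to 1.04% in the other NC libraries, 0.361% in DN replicate 3 and 2.60% to 2.90% in the other DN libraries, and 0.518%, 1.16%, 2.83% and 2.83% in DN+NaB replicates 1 to 4. In bulk tissue, fewer cells of a type and less RNA per cell cannot be told apart.

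Among the members, Mrps23 departed from the rest. It encodes a small-subunit protein that has no bacterial counterpart. In the 4 NC libraries it had 61, 53, 58 and 39 counts, against 2434, 2165, 2606 and 2032 in DN and 2053, 2537, 2360 and 2598 in DN+NaB. Scaled to library size (CPM, with effective library sizes from edgeR's TMM method, as for all CPM values here), NC libraries were at 0.934, 0.820, 0.874 and 0.541 CPM, DN libraries at 38.1, 38.1, 39.5 and 32.8, and DN+NaB libraries at 34.9, 42.0, 38.8 and 37.3. Every NC library was low and every diabetic library high, with no overlap: the lowest DN library was 35.1-fold above the highest NC library. The log2 fold change of DN against NC was 5.55 ± 0.17 (SE), or 46.9-fold, with an adjusted p of 1.92e-10 (edgeR's quasi-likelihood test, Benjamini-Hochberg over all tested genes; a gene is called where this is under 0.05). Between DN+NaB and DN the difference was 0.04 ± 0.14 (adjusted p = 0.930), with the libraries of both groups interleaved. Against NC, DN+NaB was higher by 5.59 ± 0.17, or 48.3-fold (adjusted p = 1.76e-10).

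This difference set Mrps23 apart within its own complex. Per kilobase of transcript, levels of different genes can be compared only roughly, since the lengths are medians over annotated transcripts. On this scale Mrps23 ranked 75th of 77 members in NC at 1.19 CPM per kb. It ranked 12th in DN at 55.7 and 15th in DN+NaB at 57.5. In NC it supplied 0.0311% ± 0.0042 (SD, n = 4) of the members' summed CPM, against 1.45% ± 0.113 in DN and 1.34% ± 0.087 in DN+NaB. No pseudogene transcript with 95% or more identity over at least 200 bases was found for it in GENCODE vM21, a criterion that 19 other members met.

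**Figure D1:**
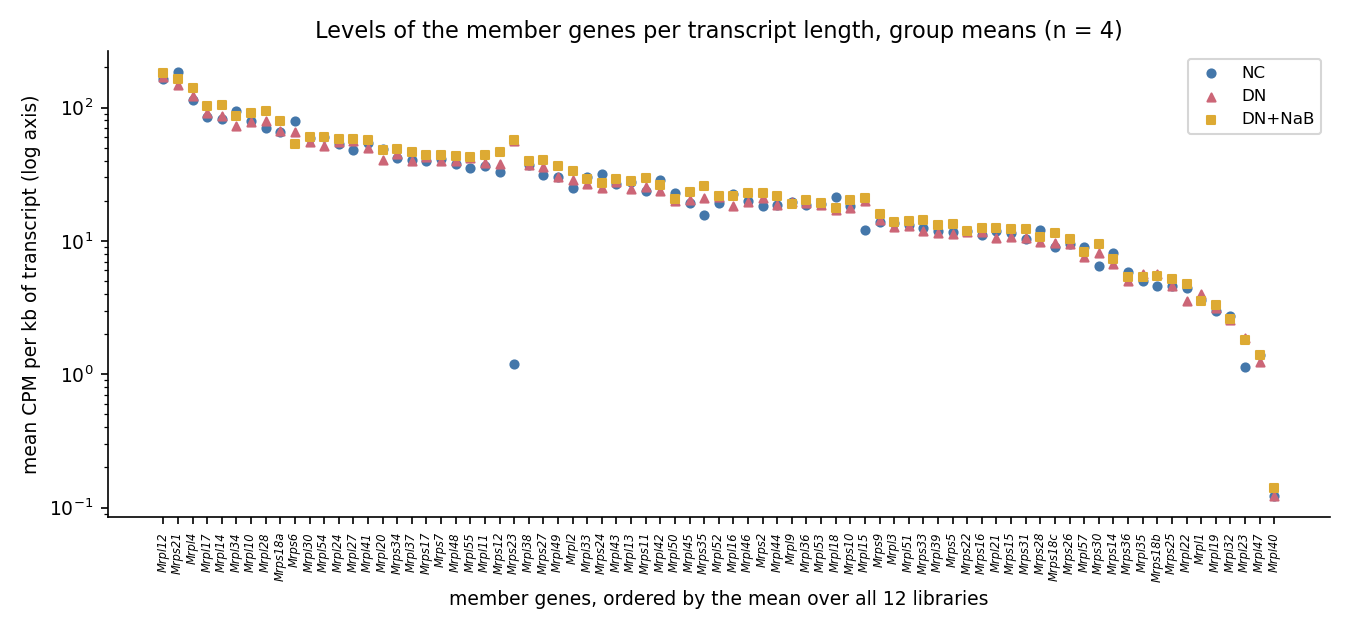
Mean level of each of the 77 members per kilobase of transcript (log axis) in NC, DN and DN+NaB, in the order of the mean over all 12 libraries. For nearly every member the 3 group means lie close together, from Mrpl12 at the top to Mrpl40 at the bottom; for Mrps23 the NC mean of 1.19 lies far below the DN and DN+NaB means of 55.7 and 57.5.

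Mrps23 did not stand alone on its chromosome. In RefSeq order (GRCm38.p6; the build the authors counted on is not given in the sources used here) the 3 tested genes just before it were Srsf1, Vezf1 and Cuedc1, and all 3 were low in every NC library as well. The promoter windows of these 4 genes are shown because the genes were low in the same libraries. They lie on the plus strand of chromosome 11 at chr11:88047123-88047402 (Srsf1), chr11:88068029-88068308 (Vezf1), chr11:88098896-88099175 (Cuedc1, the first of 2 windows) and chr11:88204138-88204417 (Mrps23). The sequences below, from RefSeq, run from 250 bases before to 30 bases after the start of transcription, and the capitals mark CCGGAAG or its reverse complement, the core that factors of the ETS family such as GABP bind. The second Cuedc1 window, at chr11:88169315-88169594, held no match.
Srsf1: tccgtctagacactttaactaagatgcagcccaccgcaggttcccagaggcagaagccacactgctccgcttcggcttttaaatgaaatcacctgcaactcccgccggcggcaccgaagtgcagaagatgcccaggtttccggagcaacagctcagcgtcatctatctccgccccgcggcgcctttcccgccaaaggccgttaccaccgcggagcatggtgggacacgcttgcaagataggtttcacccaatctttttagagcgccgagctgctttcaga
Vezf1: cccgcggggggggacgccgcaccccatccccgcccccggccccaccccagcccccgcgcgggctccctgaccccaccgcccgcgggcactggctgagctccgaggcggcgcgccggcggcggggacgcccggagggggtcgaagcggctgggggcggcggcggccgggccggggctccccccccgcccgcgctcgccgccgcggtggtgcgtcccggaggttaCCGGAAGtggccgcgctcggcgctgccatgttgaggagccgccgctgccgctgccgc
Cuedc1: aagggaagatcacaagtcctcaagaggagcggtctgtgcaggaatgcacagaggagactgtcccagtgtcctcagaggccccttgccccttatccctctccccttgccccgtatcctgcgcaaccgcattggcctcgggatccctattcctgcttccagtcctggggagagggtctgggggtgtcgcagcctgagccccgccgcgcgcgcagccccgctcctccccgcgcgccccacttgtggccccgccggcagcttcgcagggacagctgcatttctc
Mrps23: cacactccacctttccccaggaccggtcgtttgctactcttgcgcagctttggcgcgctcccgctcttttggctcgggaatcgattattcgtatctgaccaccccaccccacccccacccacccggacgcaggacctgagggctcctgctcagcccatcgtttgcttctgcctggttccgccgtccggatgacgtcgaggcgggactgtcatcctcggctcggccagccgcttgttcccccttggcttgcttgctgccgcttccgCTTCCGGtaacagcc

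In the Mrps23 window the ETS core, on the opposite strand, begins 15 bases after the start, and in the Vezf1 window it lies 27 bases before it. A promoter window was available for 68 of the 77 members, 74 windows in all. Over the full windows, which reach 50 bases past the start, CCGGAAG on either strand was in 33.8% of the members' windows and in 8.86% of all 32851 windows. The YY1 core AAGATGGC was in 16.2% against 2.75%, and the NRF1 palindrome in 4.05% against 0.971%. All 77 members were tested genes, whereas the 32851 windows, of 27025 genes, were not restricted to tested genes. The background is thus not matched to the members. GABP, YY1 and NRF1 are known regulators of nuclear genes for mitochondrial proteins; a match of letters is a description of the sequence and not of binding.

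Srsf1, which encodes a splicing factor, was at 0.321, 0.604, 0.301 and 0.555 CPM in NC. It was at 8.51, 8.17, 1.92 and 9.60 CPM in DN, with 2.06, 2.98, 7.41 and 8.84 in DN+NaB. Both diabetic groups lay above NC without overlap, but DN replicate 3 and DN+NaB replicates 1 and 2 were well below the others of their groups; DN replicate 3 and DN+NaB replicate 1 also had the lowest mitochondrially encoded shares, whose part in this was not tested. The gene rose by 3.98 ± 0.59 on the log2 scale in DN (edgeR adjusted p = 0.00118). Vezf1, a zinc finger transcription factor, was at 1.44, 0.464, 1.08 and 1.17 CPM in NC and at 7.37 to 14.0 in DN, a rise of 3.28 ± 0.31 (adjusted p = 1.80e-05). Cuedc1, which encodes a protein with a ubiquitin-binding CUE domain, was at 0.475, 0.356, 0.828 and 0.416 CPM in NC and at 8.65 to 10.5 in DN, a rise of 4.21 ± 0.24 (adjusted p = 1.61e-07). Against DN, DN+NaB differed by -0.40 ± 0.51 for Srsf1, -0.11 ± 0.28 for Vezf1 and 0.17 ± 0.21 for Cuedc1, none of them called.

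The 7 other tested genes within 5 steps had smaller differences. Of the 2 tested genes before Srsf1, Mks1 differed by 0.68 ± 0.24 in DN against NC (edgeR adjusted p = 0.105, though 0.0470 by DESeq2 and called without NC replicate 4) and Dynll2 by -0.10 ± 0.13. Msi2, the next tested gene after Mrps23, differed by -0.30 ± 0.13 (adjusted p = 0.205). Beyond it, the noncoding gene C030037D09Rik was higher in DN by 1.09 ± 0.29 (adjusted p = 0.0293). That call was lost in 7 of 20 alternative settings, among them without NC replicate 2 or 3 or DN replicate 2 or 3 (adjusted p up to 0.0789 over the 20). In DN+NaB against NC, C030037D09Rik was higher by 1.19 ± 0.29 (edgeR adjusted p = 0.0120), a call that held in all 20. Akap1, whose product anchors protein kinase A on the outer mitochondrial membrane, was lower in DN. Its log2 fold change was -0.53 ± 0.12 (edgeR adjusted p = 0.0113), called in all 20 alternatives. Its call in DN+NaB against NC (-0.36 ± 0.12, adjusted p = 0.0481) was lost in 10 of 20 alternatives (adjusted p up to 0.150). Among these were the fits without any 1 of the 4 NC libraries, DN replicate 1 or 2, or DN+NaB replicate 2, 3 or 4. Scpep1, which encodes a serine carboxypeptidase, lay lower in DN without overlap, though narrowly (highest DN library 140.4 CPM, lowest NC library 141.2). Its log2 fold change of -0.39 ± 0.12 was not called (edgeR adjusted p = 0.0714). It was called in 5 of 20 alternatives, among them DESeq2 (adjusted p = 0.0349) and without DN replicate 3 (-0.51, adjusted p = 0.0118). Coil also lay lower in DN without overlap, at 3.52 to 4.09 CPM against 4.40 to 5.08 in NC. Its difference of -0.33 ± 0.16 was not called (edgeR adjusted p = 0.247), nor in any of the 20 alternatives. Of the 10 tested neighbours, 5 on each side, 5 were called in DN against NC (4 higher, 1 lower), 0 in DN+NaB against DN, and 5 in DN+NaB against NC (4 higher, 1 lower); over all tested genes 8.23% were called in the first comparison and 15.6% in the last. The RefSeq spans of Cuedc1 and Mrps23 overlap at the end of the former, so reads from the overlap cannot be assigned from these counts.

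**Figure D2:**
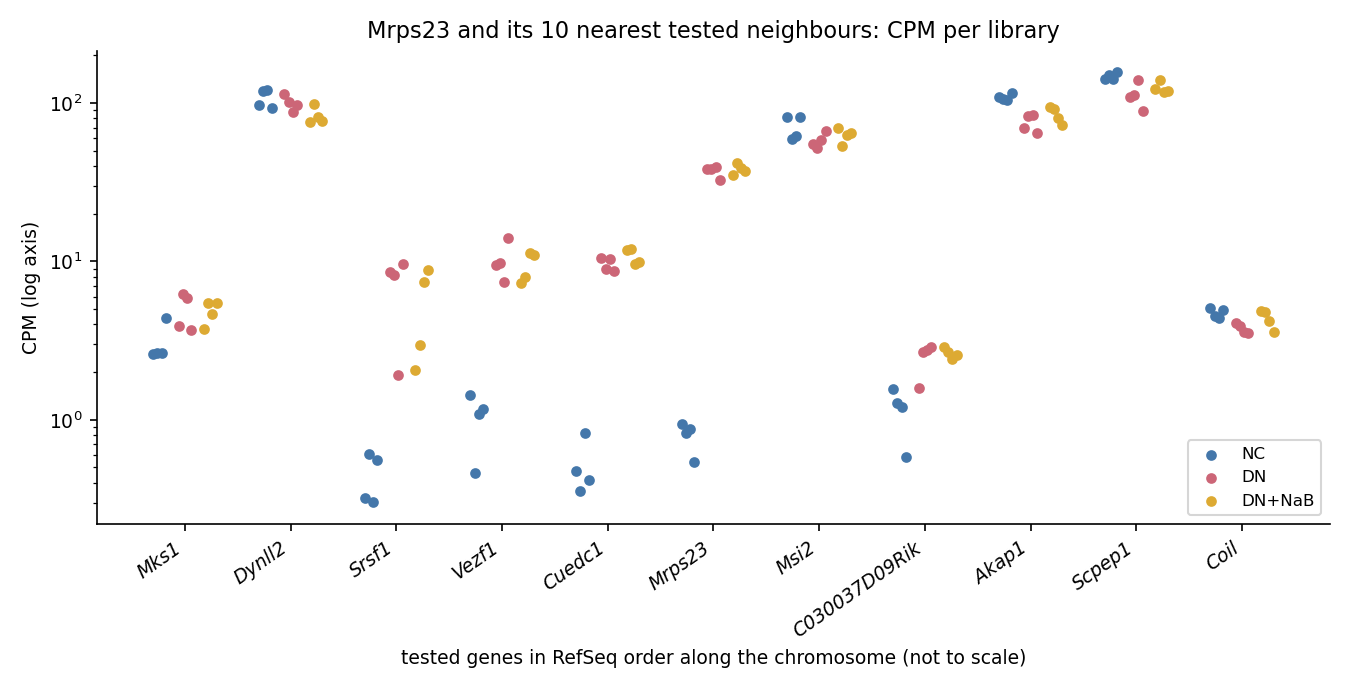
CPM per library (log axis) of Mrps23 and of the 5 nearest tested genes on each side in RefSeq order, with 4 points for each of NC, DN and DN+NaB. In Srsf1, Vezf1, Cuedc1 and Mrps23 the 4 NC points all lie below every DN and DN+NaB point, with NC at or under 1.44 CPM.

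In DN against NC, which asks how the diabetic cortex differed from normal cortex, the members lay around 0. Of 77 members, 2 were higher (Mrps23 and Mrpl15) and 0 lower, against 8.23% of all tested genes called (3.82% higher, 4.42% lower). By edgeR's test 8 of 77 members had an unadjusted p under 0.05, as did 3837 of all 17530 genes, and DESeq2 called the same 2. The median log2 fold change over the members was -0.01, beside 0.01 over all tested genes, with 38 members (49.4%) above 0 and 39 below (51.8% of all tested genes were above 0), and 74 of 77 within 0.5 of 0. In 2 members, the same pair, the groups did not overlap, both higher, beside 13.3% of all tested genes (5.86% higher, 7.49% lower). The medians of the subunits were 0.02 (small, 26 genes) and -0.01 (large, 50 genes), and those of proteins with a bacterial counterpart and of mitochondria-specific ones 0.01 (46 genes) and -0.00 (30 genes).

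Mrpl15, a large-subunit protein with a bacterial counterpart, was the other member called. Its levels were 16.5, 29.0, 25.05 and 20.2 CPM in NC, against 40.9, 40.2, 34.4 and 36.2 in DN and then 33.2, 45.0, 38.6 and 42.7 in DN+NaB. All 8 diabetic libraries lay above all 4 NC libraries. The rise in DN was 0.74 ± 0.16 on the log2 scale, or 1.67-fold (edgeR adjusted p = 0.0104), and DN+NaB differed from DN by 0.07 ± 0.16 (adjusted p = 0.896) and from NC by 0.81 ± 0.16 (adjusted p = 0.00360). Its lowest library in each group was the one with the lowest mitochondrially encoded share, NC replicate 1, DN replicate 3 and DN+NaB replicate 1; without these 3 libraries the rise in DN was 0.66 (adjusted p = 0.0251), and that in DN+NaB against NC was 0.77 (adjusted p = 0.00701).

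The members farthest below 0 in DN were Mrpl34, at 62.4, 68.2, 60.7 and 39.0 CPM in NC and 43.2, 47.6, 53.8 and 33.6 in DN, and Mrps24, at 29.2, 35.8, 37.2 and 25.2 in NC and 21.6, 28.4, 30.7 and 18.1 in DN (both named after their values were seen). In both genes NC replicate 4 and DN replicate 4 were the lowest of their groups, and the groups overlapped. Their log2 fold changes were -0.37 ± 0.17 and -0.37 ± 0.17 (edgeR adjusted p = 0.216 and 0.222). Without NC replicate 4, Mrpl34 was called at -0.53 (adjusted p = 0.0264), and Mrps6 was called too.

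**Figure D3:**
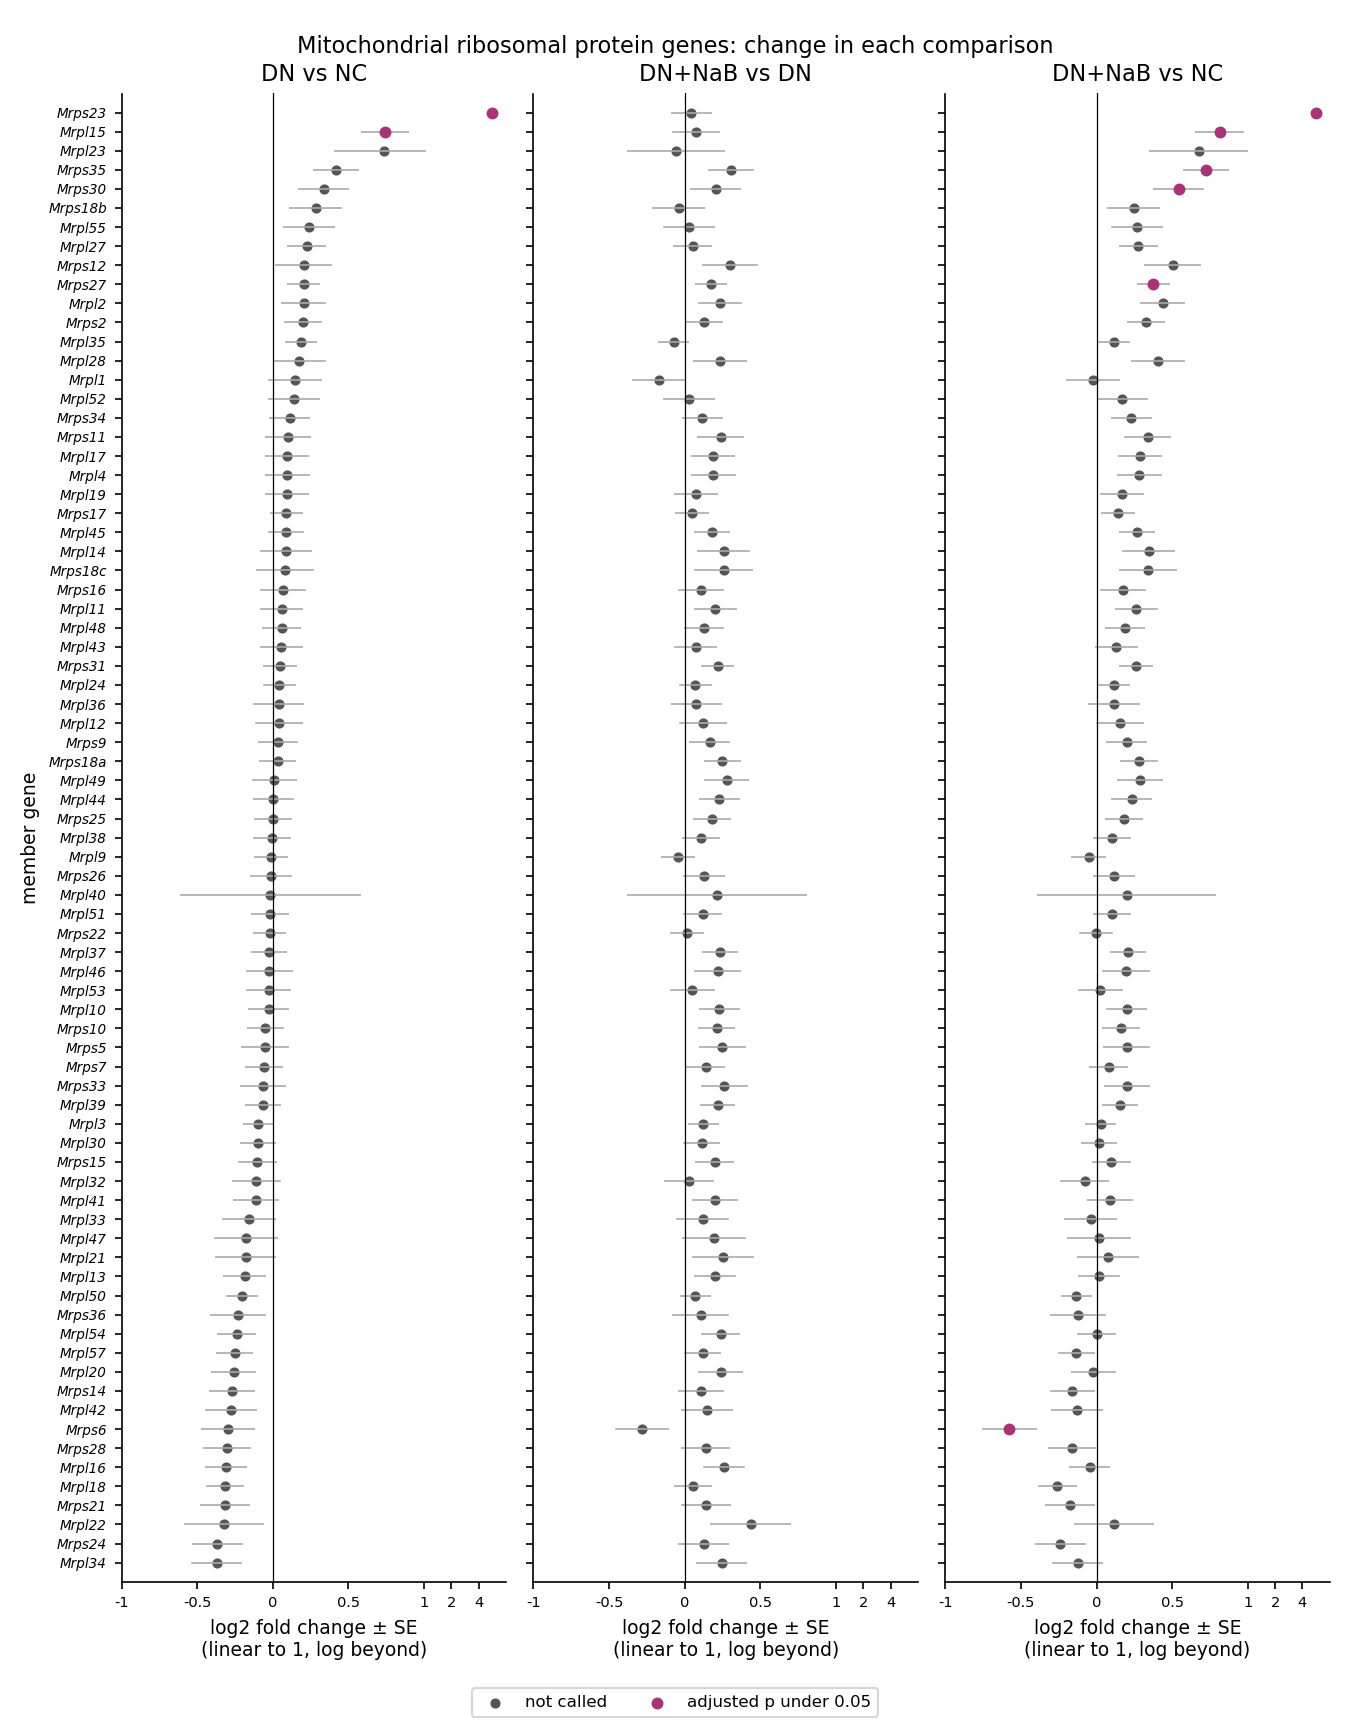
Log2 fold change ± SE of each of the 77 members in the 3 comparisons, in the order of DN against NC; the axis is linear to 1 and logarithmic beyond, and purple marks an adjusted p under 0.05. The left panel is balanced about 0 apart from Mrps23, Mrpl15 and Mrpl23, of which Mrpl23 was not called. In the middle panel 71 of 77 points lie right of 0 with none called.

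In DN+NaB against DN, the comparison of butyrate within diabetic nephropathy, 0 of 77 members were called by edgeR in either direction, as were 0 by DESeq2. Over all tested genes the share called was 0.0228%, that is 4 genes (0.0114% higher and 0.0114% lower). None of the members reached an unadjusted p under 0.05 by edgeR, as 1726 of all 17530 genes did. The estimates nonetheless lay mostly to one side: 71 of 77 (92.2%) were above 0, beside 47.2% of all tested genes, with a median of 0.14 beside -0.02 and a range from -0.28 (Mrps6) to 0.44 (Mrpl22). The same held by subunit, with 24 of 26 small-subunit and 46 of 50 large-subunit members above 0 and medians of 0.14 and 0.16. Without DN replicate 4 the median was 0.07, without DN replicate 3 it was 0.23, and without the library of lowest mitochondrially encoded share in each group it was 0.22. The members moved together between libraries, so 71 of 77 is not a count of separate observations. Per library, their median log2 deviation from the NC means ran from -0.25 (replicate 4) to 0.20 (replicate 3) within DN. Within DN+NaB it ran from 0.11 to 0.24.

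Much of the spread lay between libraries within a group. Summed over the 77 members, the NC libraries were at 2586, 2736, 2716 and 2085 CPM (mean 2531 ± 304, SD, n = 4). The DN libraries were at 2507, 2717, 2982 and 2087 CPM (2573 ± 378) and the DN+NaB libraries at 2884, 3026, 2786 and 2723 (2855 ± 132). NC replicate 4 and DN replicate 4 were about equally low, the remaining libraries lay between 2507 and 3026, and the groups overlapped. Large-subunit CPM divided by small-subunit CPM stayed between 2.23 and 2.49 in all 12 libraries, the lowest in DN replicate 4 and the highest in NC replicate 4. The small-subunit sum holds Mrps23 as well, which lowers the ratio in DN and DN+NaB but hardly in NC. The ratio without Mrps23 was not taken, so no difference of the ratio between NC and the diabetic groups is read from it. Beside the mitochondrially encoded share, DN replicate 3, at 0.361%, had the highest member level of its group, and DN replicate 4, at 2.60%, the lowest. Other libraries did not follow that order. DN replicate 2, with the highest share of its group at 2.90%, was above DN replicate 1 in member level. NC replicate 1, with the lowest NC share at 0.494%, was below NC replicates 2 and 3. DN+NaB replicate 1, at 0.518%, was below DN+NaB replicate 2, at 1.16%, but above replicates 3 and 4.

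**Figure D4:**
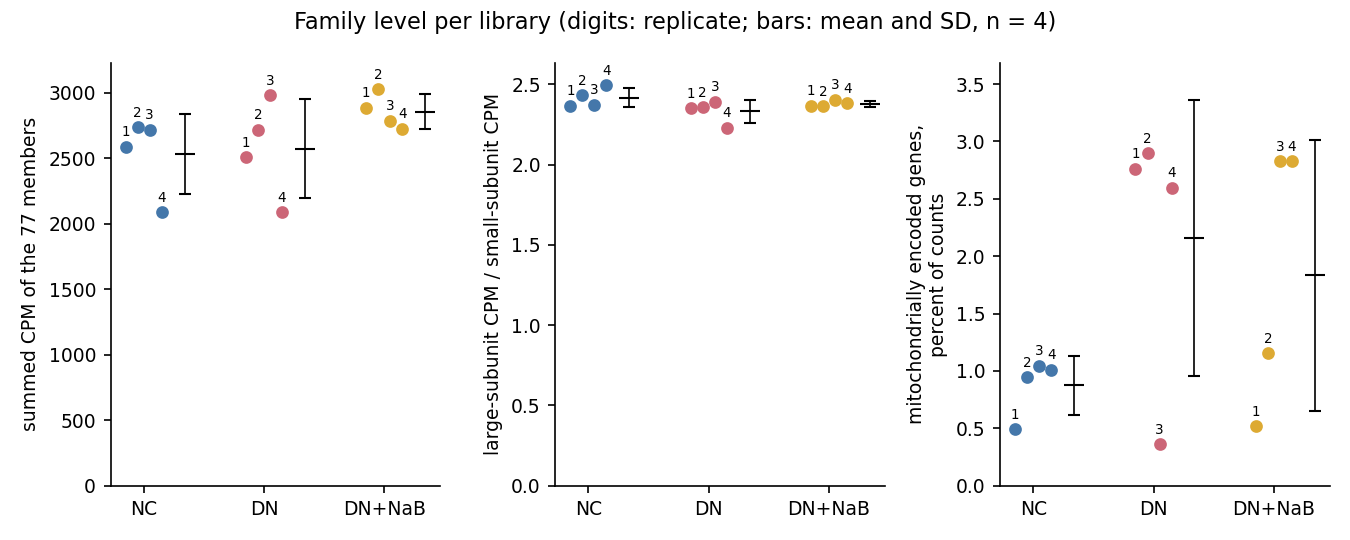
Summed CPM of the 77 members, the ratio of large-subunit to small-subunit CPM, and the percent of counts from mitochondrially encoded genes, for each library (digits are replicates; bars are mean and SD, n = 4 per group). NC 4 and DN 4 are lowest in the first panel at 2085 and 2087 CPM, the ratio stays between 2.23 and 2.49, and the third panel separates NC 1, DN 3 and DN+NaB 1 as the lowest of their groups.

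Mrpl37, a mitochondria-specific large-subunit protein, was the only member whose DN and DN+NaB libraries did not overlap (named after its values were seen; 4.56% of all tested genes did not overlap, 2.13% higher and 2.44% lower). NC libraries were at 61.9, 65.8, 65.8 and 48.9 CPM, DN libraries at 54.5, 65.5, 67.5 and 51.1, and DN+NaB libraries at 71.5, 71.3, 69.0 and 68.3. The DN+NaB libraries had an SD of 1.61 CPM, and the lowest was close to the highest DN library. The difference from DN was 0.23 ± 0.12 (edgeR adjusted p = 0.564). Mrpl12 is part of the stalk that recruits translation factors. By the mean over all 12 libraries it was the most abundant member both in CPM and per kilobase, although Mrps21 was above it per kilobase in NC. Mrpl12 was at 156 to 262 CPM in DN and 224 to 262 in DN+NaB, which overlap, with a difference of 0.12 ± 0.16 (edgeR adjusted p = 0.826).

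In DN+NaB against NC, 5 members were higher (Mrps23, Mrpl15, Mrps35, Mrps27 and Mrps30) and 1 lower (Mrps6), beside 6.62% and 8.94% of all tested genes and 15.6% in either direction. This comparison shares the NC libraries with DN against NC and the DN+NaB libraries with the one above. The median over the members was 0.16, beside -0.01 over all tested genes, and 59 of 77 were above 0, beside 49.2% of all genes. In 17 members the DN+NaB libraries all lay above the NC libraries and in 0 below (14.0% and 13.9% of all tested genes, 27.9% in either direction). Without NC replicate 4 the median was 0.07. Scaling by library size alone lowered the median of all genes in this comparison from -0.01 to -0.12 and that of the members from 0.16 to 0.05.

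Mrps35, a mitochondria-specific small-subunit protein, was at 38.9, 36.3, 36.9 and 28.9 CPM in NC. DN libraries were at 43.4, 49.6, 60.3 and 35.2 CPM and DN+NaB libraries at 64.1, 60.1, 52.0 and 57.0. The DN libraries spread across the gap between the other groups, which did not overlap. The rise in DN+NaB against NC was 0.73 ± 0.15, or 1.65-fold (edgeR adjusted p = 0.00526). The differences of DN from NC and of DN+NaB from DN, 0.42 ± 0.15 and 0.31 ± 0.15, were not called (adjusted p = 0.112 and 0.537), although the former was called without DN replicate 4 (0.51, adjusted p = 0.0180).

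Mrps27, a small-subunit protein of the RNA-binding pentatricopeptide repeat family, was at 42.7, 46.2, 44.3 and 37.7 CPM in NC. It was at 45.7, 52.6, 54.4 and 44.1 CPM in DN, against 53.6, 61.6, 54.2 and 52.3 in DN+NaB. It was higher in DN+NaB than in NC by 0.38 ± 0.11 without overlap (edgeR adjusted p = 0.0285). The call was lost in 6 of 20 alternative settings, among them without NC replicate 1 or 4 or DN+NaB replicate 2 or 3 (adjusted p up to 0.0982). Mrps30, in the large subunit, was at 16.8, 24.0, 25.7 and 19.3 CPM in NC. It was at 27.7, 32.7, 24.2 and 23.8 CPM in DN, against 23.0, 33.5, 33.1 and 35.3 in DN+NaB. It was higher in DN+NaB than in NC by 0.54 ± 0.17 (edgeR adjusted p = 0.0433), but DN+NaB replicate 1 lay within the NC range, and 10 of 20 alternatives lost the call, among them without NC replicate 1, 2 or 4, DN replicate 1 or DN+NaB replicate 2, 3 or 4 (adjusted p up to 0.140). Without the 3 libraries of lowest mitochondrially encoded share it was called (0.56, adjusted p = 0.0340), while Mrps27 was not (0.39, adjusted p = 0.0768).

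Mrps6, a small-subunit protein with a bacterial counterpart, was the only member called lower. NC libraries were at 64.3, 74.6, 90.0 and 41.7 CPM, DN libraries at 54.3, 56.5, 48.6 and 61.3, and DN+NaB libraries at 49.1, 49.1, 41.1 and 42.1. NC replicate 4 was within the DN+NaB range while the other NC libraries were above it. The log2 fold change of DN+NaB against NC was -0.58 ± 0.18 (edgeR adjusted p = 0.0440), and 12 of 20 alternatives lost the call, with 9 of the 12 single libraries among them: NC replicates 1, 2 and 3, DN replicates 1 and 2 and all 4 of DN+NaB (adjusted p up to 0.138). In RefSeq its span overlaps Slc5a3, the gene of a myo-inositol transporter, and whether counting used strand is not given in the sources used here, so reads of these genes may not be separable. Slc5a3 ranged from 349 to 592 CPM in NC, from 156 to 866 in DN and from 144 to 182 in DN+NaB. Its log2 fold change in DN+NaB against NC was -1.54 ± 0.40 (adjusted p = 0.0232), a call lost in 7 of 20 alternatives, among them without NC replicate 1 or 3 or any 1 of the DN+NaB libraries (adjusted p up to 0.0668). DN replicate 4 was the highest DN library in both genes; the part of Slc5a3 in the Mrps6 result was not tested.

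**Figure D5:**
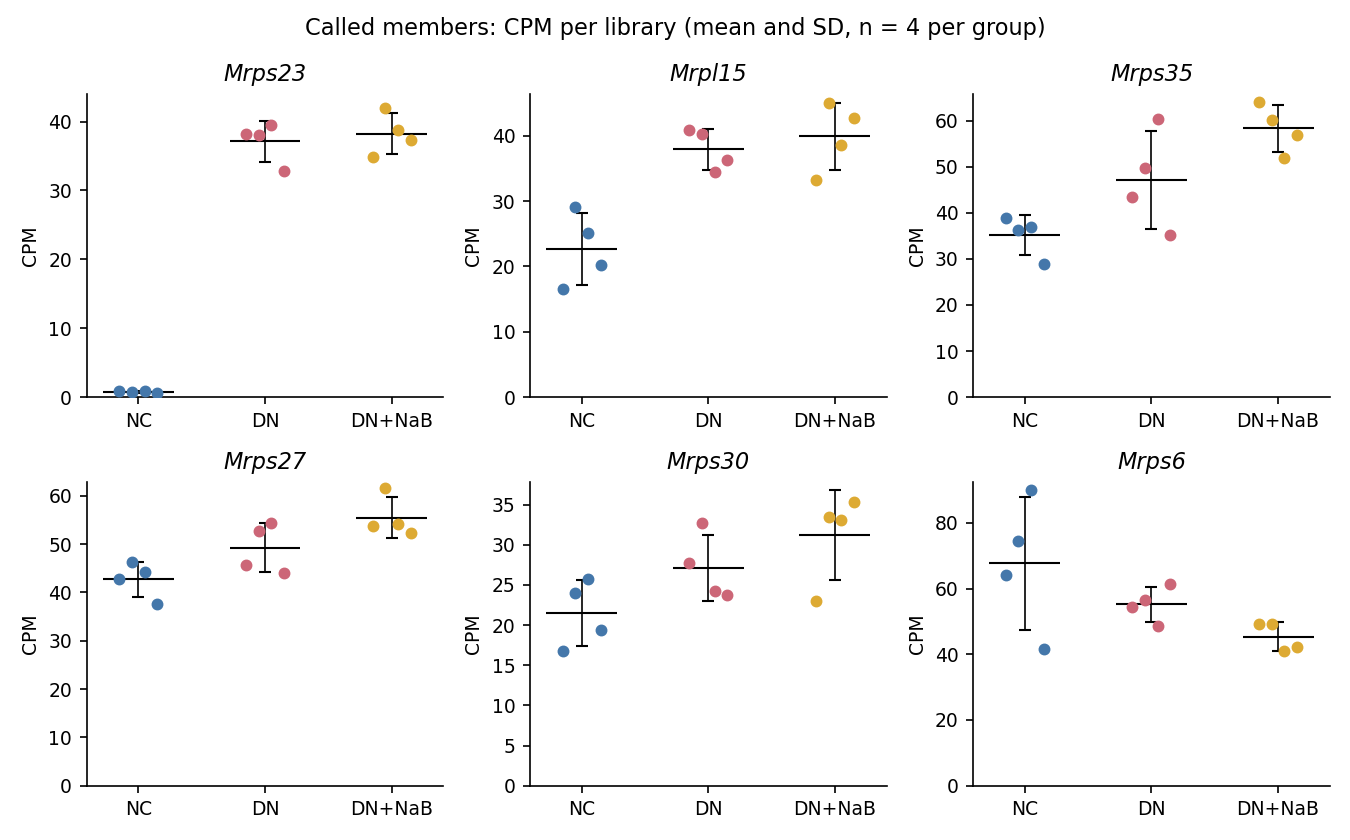
CPM per library (linear axes from 0; bars are mean and SD, n = 4 per group) for the 6 members called in at least 1 comparison. Mrps23 is near 0 in NC and between 32.8 and 42.0 in the other libraries, Mrpl15 separates NC from both diabetic groups, Mrps35 and Mrps27 step upward with DN between, and Mrps30 and Mrps6 overlap between NC and DN+NaB.

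Members named for their roles were not called unless given above. Mrps12, the decoding-centre protein, lay between 15.3 and 29.8 CPM in NC and between 31.2 and 37.5 in DN+NaB, without overlap, but the difference of 0.50 ± 0.19 was not called (edgeR adjusted p = 0.0851); it was called with the replicate block (0.55, adjusted p = 0.0201) and without NC replicate 2 (0.63, adjusted p = 0.0477), and in none of the other 18 alternatives. Mrps18a, Mrps18b and Mrps18c, which encode related proteins, differed between DN and NC by 0.03 ± 0.12, 0.29 ± 0.18 and 0.08 ± 0.19, none called. Mrpl38, Mrpl44 and Mrps25, the 3 nearest to 0 in DN against NC, differed by -0.01, 0.00 and 0.00. Mrps36, the dehydrogenase subunit, differed by -0.23 ± 0.19 (adjusted p = 0.527). Mrps22, of the small subunit, was among the steadiest, at 13.1 to 16.0 CPM in all 12 libraries.

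The levels of the members spanned a wide range. Per kilobase of transcript, averaged over all 12 libraries, Mrpl12 (172 CPM per kb), Mrps21 (166) and Mrpl4 (126) were highest, followed by Mrpl17 (92.6), Mrpl14 (91.1) and Mrpl34 (85.1), and the median member was at 20.9. The lowest were Mrpl19 (3.15), Mrpl32 (2.64), Mrpl23 (1.61), Mrpl47 (1.34) and Mrpl40 (0.128). These ranks depend on the annotated length, which was 5000 bases for Mrpl19, at a mean of 15.7 CPM. Mrpl12 and Mrps21 changed places between groups, with 164 and 185 CPM per kb in NC but 183 and 164 in DN+NaB, so their order is within the spread. In CPM, Mrpl12, Mrpl10 and Mrpl4 were the 3 highest, and 66 of 77 members were at or above 10 CPM.

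Some members are measured less well. Mrpl40 had 2 to 16 counts per library, the lowest of the family, and its differences carried an SE of about 0.60 on the log2 scale. For Mrps18b a 99.8% identical copy, Gm13552, held 68.4% to 74.2% of the pair's counts, so the level of Mrps18b itself is uncertain. Copies held 12.4% to 33.9% of the counts of Mrpl23 and Mrpl23-ps1, 12.9% to 25.4% for Mrps33 and Gm5776, and 17.7% to 30.3% for Mrps36 and Mrps36-ps1. Mrpl23, whose estimate in DN against NC was 0.73 ± 0.33, was thus at 26 to 107 counts beside a copy of identical sequence over 540 bases, and was not called (adjusted p = 0.211). The RefSeq spans of 25 members overlap another gene.

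Other genes of mitochondrial translation were taken from lists by function. Of 6 listed subunits with other symbols (Ict1, an older symbol of Mrpl58, among them), 25 assembly and RNA-modifying factors, 15 translation factors and mRNA-binding proteins, 20 aminoacyl-tRNA synthetases, 11 genes of mitochondrial transcription and DNA maintenance and 9 biogenesis regulators, 0 were called by edgeR in DN against NC and 0 in DN+NaB against DN, beside 8.23% and 0.0228% of all tested genes. DESeq2, read for the 4 genes named below, called Peo1 in the former (0.42, adjusted p = 0.0401). Unadjusted p values under 0.05 were found for 1, 4, 0, 1, 1 and 0 of them in the former and 0, 0, 1, 0, 0 and 0 in the latter, beside 3837 and 1726 of all 17530 tested genes. Medians in DN against NC were 0.07, 0.17, 0.06, -0.02, 0.12 and 0.15 in that order, and in DN+NaB against DN 0.15, 0.06, 0.15, 0.09, 0.03 and -0.05.

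In DN+NaB against NC, 4 of these 86 genes were higher and 0 lower, beside 6.62% and 8.94% of all tested genes, so calls were no more frequent here than over all genes. Gadd45gip1, a large-subunit protein at the exit of the nascent chain, was at 23.7, 23.3, 25.02 and 18.8 CPM in NC and 33.2, 36.5, 32.7 and 32.8 in DN+NaB, without overlap, a rise of 0.57 ± 0.15 (edgeR adjusted p = 0.0170, lost without DN+NaB replicate 2 at 0.0541). Noa1, a GTPase of ribosome assembly, rose by 0.53 ± 0.16 (adjusted p = 0.0419), Rpusd4, a pseudouridine synthase, by 0.46 ± 0.15 (0.0447), and Peo1, the mitochondrial DNA helicase Twinkle, by 0.44 ± 0.14 (0.0400). These 3 calls held in 11, 7 and 12 of 20 alternatives, and each had its highest adjusted p without DN+NaB replicate 2 (0.123, 0.118 and 0.134). Single libraries whose absence ended the call were NC 1 and 4, DN 2 and all 4 DN+NaB for Noa1; all 4 NC, DN 1 and all 4 DN+NaB for Rpusd4; and NC 1, 3 and 4 and DN+NaB 1, 2 and 4 for Peo1. The regulators Ppargc1a, Nrf1 and Gabpa, and Tfam, which packages mitochondrial DNA, differed by no more than 0.11 in size on the log2 scale in each of the 3 comparisons, none called. The full list of 9 biogenesis regulators spread more widely. Its log2 fold changes ran from -0.05 to 0.22 in DN against NC and from -0.17 to 0.01 in DN+NaB against DN. In DN+NaB against NC they ran from -0.11 to 0.20, with 0 of the 9 called.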

How the data were processed

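Gene-level read counts of 12 libraries were used as the authors deposited them. The submitters' processing notes name HISAT2 2.0.4; the genome build, annotation, counter and its strand setting were not given in the sources used here. Counts were whole numbers and each library's column was matched by name to its title; 0 value columns were left unmatched.

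All 12 libraries were fitted with edgeR 4.0.16 in R 4.3.3 (filterByExpr by group, TMM scaling, robust quasi-likelihood fit with group as the only term), and p-values were adjusted by Benjamini-Hochberg over all 17530 tested genes. SE is the log2 fold change divided by the square root of F. DESeq2 1.42.0, other scalings and filters, only the compared groups, a replicate block and each library left out were alternatives, 20 with one added after the data were seen (without NC 1, DN 3 and DN+NaB 1). With 4 libraries per group, differences well above the printed SE can go uncalled. An example is Mrps35 in DN against NC (0.42 ± 0.15, edgeR adjusted p = 0.112). An uncalled difference is therefore not shown to be absent.

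Transcript lengths are medians over protein-coding transcripts of GENCODE vM21; copies were sought with blastn 2.17.0; promoters, gene order and overlaps are from RefSeq (GRCm38.p6), which matched all 77 members. The members, gene lists and tests were chosen with earlier results of these data known. Named members were Mrps23, every called member, the 3 highest and 3 lowest by mean CPM, the 3 nearest to 0 in DN against NC, and a set named for their roles. Other members were named after their values were seen and are not all marked where they occur.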

Additional observations from a re-analysis of the deposited data

Results flagged for a closer look

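Sets of 4 libraries, 147 in all, were taken by group from the named members, the neighbours of Mrps23, the named list genes and the family measures. The members included some named after their values were seen, Mrps21 and Mrps14 among them. In 11 sets 1 library was set apart from the other 3 by more than Dixon's 95% limit. Chance gives about 1 in 20, and over all members 12 of 231 sets met the limit. NC replicate 4 was low in Mrpl3 at 27.3 CPM, in Mrps21 at 56.3 CPM and in the members' share of counts at 0.231%, and high in Mks1 at 4.40 CPM. DN replicate 3 was high in Mrpl3 at 32.7 CPM and low in the mitochondrially encoded share at 0.361%. DN replicate 1 was low in C030037D09Rik at 1.58 CPM. DN+NaB replicate 2 was high in Mrps25 at 34.8 CPM and in Gadd45gip1 at 36.5 CPM, DN+NaB replicate 1 was high in Mrps14 at 16.4 CPM, and NC replicate 2 was high in Peo1 at 37.8 CPM.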

How the results depend on the processing

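Mrps23, Mrpl15, Srsf1, Vezf1 and Cuedc1 were called in DN against NC, and with Mrps35 in DN+NaB against NC, under all 20 alternatives. The same held for Akap1 in DN against NC and for C030037D09Rik in DN+NaB against NC. In DN against NC, scaling by library size alone gave 2 members lower (Mrpl16 and Mrpl18); leaving out each library gave 2 to 3 higher and 0 to 2 lower, the 2 without NC replicate 4. In DN+NaB against DN, 0 members were called under any alternative. In DN+NaB against NC, the count higher was 3 with no filter, 9 with only the compared groups fitted and 8 with the replicate block, and 3 to 7 with each library left out, the 3 without NC replicate 1 or 4 or DN+NaB replicate 2 or 3; the count lower was 2 by library size alone, 0 with only the compared groups, 0 with the replicate block, 0 without NC 1, DN 3 and DN+NaB 1 together, and 0 to 1 with each library left out. The cause of these shifts was not tested. Whether the numbers in the titles pair the libraries was not settled. Deviations from the group means correlated from -0.35 (DN 3 and DN+NaB 3) to 0.38 (DN 4 and DN+NaB 4) between libraries of the same number. Between libraries of different numbers they correlated from -0.39 (DN 3 and DN+NaB 4) to 0.42 (DN 3 and DN+NaB 1). Such overlapping ranges can neither show nor exclude a pairing. Of 2634 values of single genes under alternatives, 83 lost and 23 gained a call and 90, called neither way, changed sign, so no direction is read from those. Depth limits Mrpl40 and, in NC, Mrps23 and its low neighbours.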
